A study of Mus musculus with 48 samples.

Results

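Slc36a1, Pianp, Wdr81, Fam122b, Yipf6, Zmym5, Cdkn2d and B3gnt2 are the named genes that were shifted most between MLO-Y4 cells given 2 µM ADP and cells without it. They were chosen from that comparison itself, as 8 genes within the first 10 by p in a fit of 11604 genes, out of 55335 gene rows in each table. The members' values under ADP are therefore a description, and their p-values in that fit say how they were chosen and are no test of them. The members were tested in other libraries. All 8 gene symbols were found once in each of the 4 tables.

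MLO-Y4 is a mouse osteocyte-like cell line, used to model the cells buried in bone matrix, and the study asked how mitochondrial damage spreads through osteocyte networks. The 2 ADP groups were MLO-Y4 cells with 2 µM ADP for 2 h (ADPpositive) and cells labelled ADPnegative, 3 libraries each. In 4 further groups of 3 libraries, MLO-Y4 cells received oligomycin A, which blocks the ATP synthase of mitochondria, at a working 50 µM or DMSO vehicle for 1 h, and untreated MLO-Y4 cells received the supernatant of either culture for 2 h. Bone came from wild-type C57BL/6J mice: cortical bone at 18 months, and fragments at 1 month that were labelled as medium transfer or control and kept for 48 h, with 3 libraries a group. The labels do not say which donor medium each set of fragments received. How the replicates were made (1 culture or several, 1 animal or several) is not labelled. A p-value here covers the spread among the libraries of a label, and that spread may be technical. Within the cell line, the osteocyte markers Pdpn, Cd44, Gja1 and Phex averaged 155, 127, 30.3 and 7.49 FPKM in the cells without ADP. The osteocyte markers Dmp1, Mepe and Fgf23 averaged 0.0112, 0 and 0.00803 FPKM in the same cells. Sost, the marker of mature osteocytes, was at 0 in every library of both ADP groups and of the vehicle-treated cells. FPKM are fragments per kilobase of transcript, scaled to a library's sequenced fragments.

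Extracellular ADP acts through P2Y receptors on the cell surface. The 8 genes belong to no single pathway. Slc36a1 encodes a proton-coupled amino acid transporter of lysosomes that takes part in amino acid sensing by mTORC1. Wdr81 encodes a BEACH and WD-repeat protein of endosomes that, with its partner WDR91, restrains the class III phosphoinositide 3-kinase. Yipf6 encodes a Golgi membrane protein of the YIPF family. B3gnt2 encodes the glycosyltransferase that builds poly-N-acetyllactosamine chains on glycoproteins. Pianp encodes a membrane protein that binds the immune receptor PILRα and the GABA-B receptor. Fam122b is a relative of a protein inhibitor of the phosphatase PP2A, Zmym5 encodes a MYM-type zinc finger protein, and Cdkn2d encodes p19INK4d, an inhibitor of the cyclin-dependent kinases CDK4 and CDK6.

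The sequences at B3gnt2 are given first because the readings of this gene turn on them. In GENCODE M21 (GRCm38), B3gnt2 (ENSMUSG00000051650) lies on chromosome 11 from 22759738 to 22860961 on the minus strand. Its span overlaps in part that of a second annotated protein-coding gene on the same strand, Gm28048 (ENSMUSG00000098650, 22834744 to 22982090). The last exon of the longest B3gnt2 transcript (3057 bp) begins at the same base as that of Gm28048. In this B3gnt2 transcript it covers 2449 bp, 80.1% of the length, and holds all 1191 bp of the coding sequence. Over these 2449 bp the 2746-bp transcript of Gm28048 is identical, so a fragment inside the exon fits both genes. What tells the transcripts apart is the exon in front, given here as 15 bases of the upstream exon in lower case and the first 15 bases of the shared exon (chr11:22837181-22837195, minus strand) in capitals.
B3gnt2 exon join: gtgtccctagacaagGTATGAGAGATGAGT
Gm28048 exon join: ggaaaaaatggacagGTATGAGAGATGAGT
The first 90 coding bases of B3gnt2 (chr11:22837097-22837186, minus strand, start codon in capitals) also occur in the Gm28048 transcript, from its position 304. In Gm28048 these bases lie after the annotated coding sequence and are not coding. That coding sequence falls almost wholly in the exons upstream and ends within the first bases of the shared exon.
B3gnt2 first coding bases: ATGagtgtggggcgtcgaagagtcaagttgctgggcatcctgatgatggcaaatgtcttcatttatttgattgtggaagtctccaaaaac

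Of the genes that serve vesicles, lysosomes and the Golgi, 3 were higher with ADP and 1 was lower. Slc36a1 stood at 0.772, 0.776 and 0.836 FPKM in the 3 libraries without ADP and at 2.53, 2.29 and 2.20 FPKM in the 3 with ADP. The groups did not overlap, and the means of 0.795 ± 0.0361 and 2.34 ± 0.172 FPKM (SD, n = 3 each) differ by a factor of 2.95, which is 0.90 ± 0.06 (SE) on the log2(FPKM + 1) scale. That scale, used for every log2 difference here, understates the change of genes at such low levels.

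Wdr81 stood at 1.74, 1.63 and 1.60 FPKM without ADP and at 3.53, 3.40 and 3.20 FPKM with it, a log2 difference of 0.72 ± 0.05 (SE). Yipf6 stood at 1.32, 1.40 and 1.24 FPKM without ADP and at 2.94, 3.59 and 3.06 FPKM with it, a log2 difference of 0.85 ± 0.07 (SE). In both genes every library with ADP lay above every library without it. B3gnt2 went the other way, from 8.37, 7.90 and 8.09 FPKM to 3.74, 5.00 and 4.36 FPKM, a log2 difference of -0.77 ± 0.09 (SE), and its groups did not overlap either.

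Among the other 4 genes, 2 were higher and 2 were lower with ADP. Pianp, the most abundant of the 8 in these libraries, stood at 13.7, 12.9 and 14.1 FPKM without ADP and at 26.4, 23.3 and 24.0 FPKM with it, a log2 difference of 0.81 ± 0.06 (SE). Fam122b stood at 1.64, 2.03 and 1.61 FPKM without ADP and at 4.29, 4.25 and 4.49 FPKM with it, a log2 difference of 0.96 ± 0.07 (SE). Both genes had all ADP libraries above all others.

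Zmym5 stood at 7.72, 7.91 and 6.82 FPKM without ADP and at 4.34, 4.62 and 4.16 FPKM with it, a log2 difference of -0.66 ± 0.06 (SE). Cdkn2d stood at 8.93, 9.03 and 7.71 FPKM without ADP and at 5.16, 5.38 and 5.11 FPKM with it, a log2 difference of -0.62 ± 0.06 (SE). For these genes the libraries with ADP were all below those without.

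Of the 8, 5 passed an adjusted p of 0.05 in the fit that selected them (limma with Benjamini-Hochberg adjustment), namely Slc36a1, Pianp, Wdr81, Fam122b and Yipf6. Over all genes of that fit 0.0603% passed, 7 of 11604, and the share of members follows from their choice. Without single libraries 0 to 6 of the 8 passed, while each difference kept its direction. At the edge of the choice, B3gnt2 was at place 10 by p. The next genes outside it were AC154176.1, which went from 19.8 ± 0.397 to 23.7 ± 0.397 FPKM, and Hmga1, an architectural chromatin protein, which went from 52.5 ± 2.80 to 39.9 ± 1.43 FPKM (SD, n = 3 each).

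**Figure D1:**
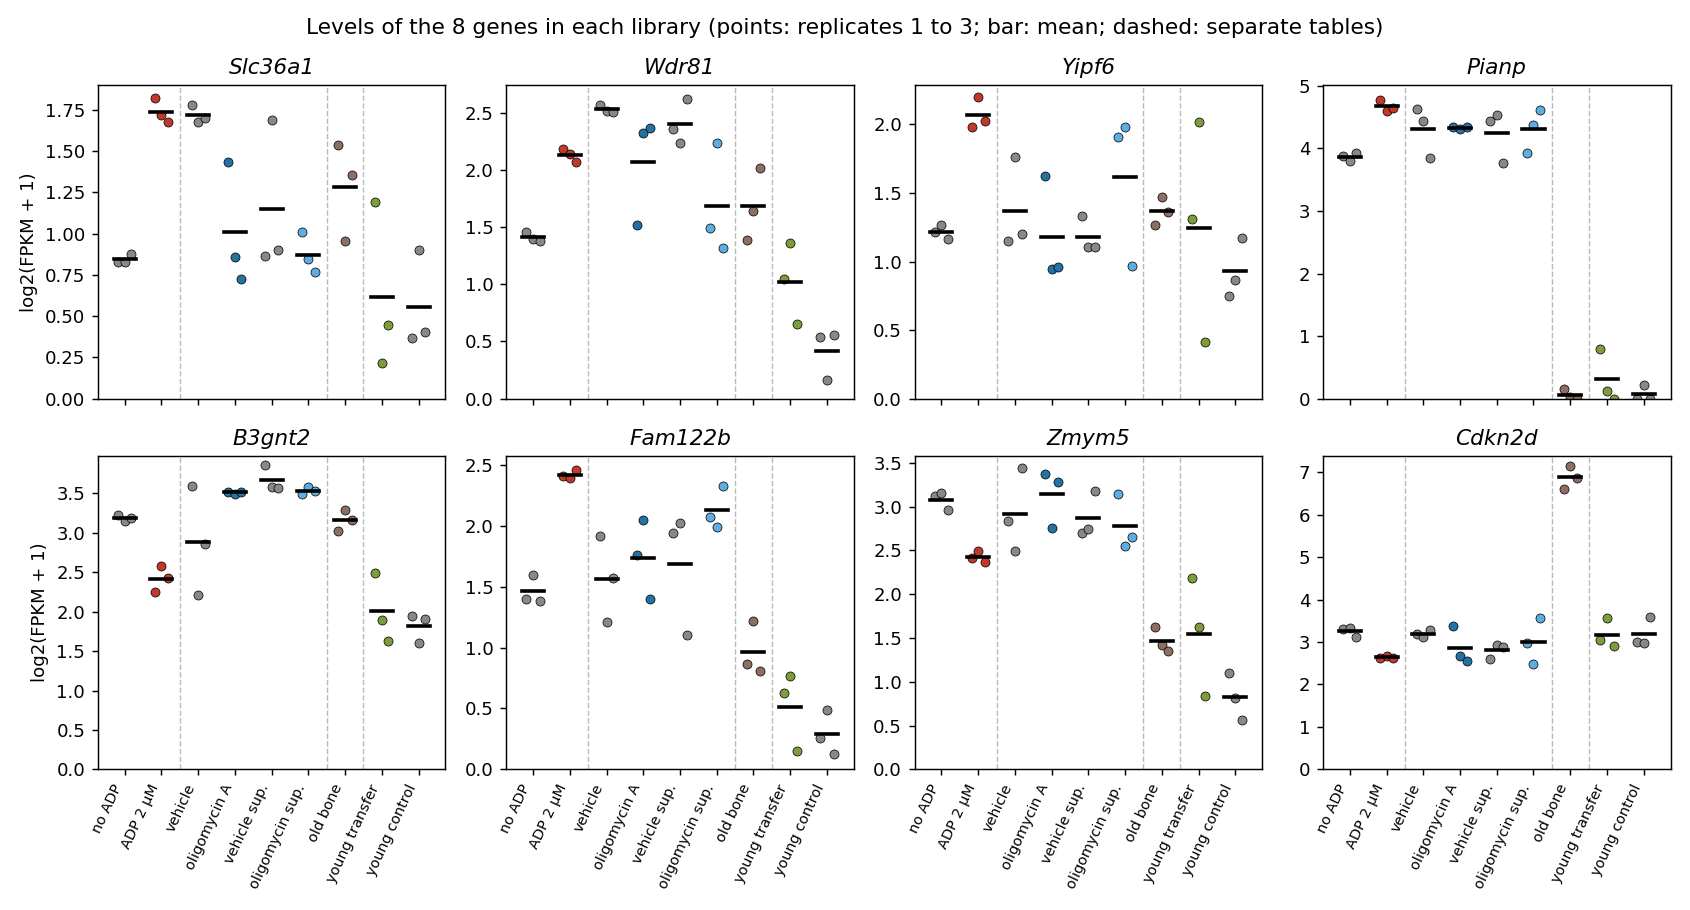
Levels of the 8 genes as log2(FPKM + 1) in each library of the 9 groups. Points are replicates 1 to 3, bars are group means, and dashed lines separate tables that were normalized apart. In the 2 ADP groups at the left the replicates lie close together and the groups do not overlap, while in the 4 oligomycin A groups the replicates of a group spread widely.

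The genes around the members were also read in the ADP groups. Slc36a1, Pianp and Yipf6 have no other annotated gene that overlaps them or lies within 5 kb. Serpinf2 beside Wdr81, Plac1 and Fam122c beside Fam122b, and Gm4479 beside Zmym5 all averaged under 0.2 FPKM in both groups, and Ap1m2 beside Cdkn2d was listed at 0. The noncoding gene 2410022M11Rik, which starts 273 bp from Zmym5 on the other strand, averaged 0.534 ± 0.171 FPKM without ADP and 0.510 ± 0.0886 FPKM with it (SD, n = 3 each). Kri1, a gene for ribosome assembly 441 bp from Cdkn2d, averaged 9.86 ± 0.874 FPKM without ADP and 9.24 ± 0.454 FPKM with it, and its groups overlapped. Of the 8 genes B3gnt2 alone shares exon bases with other annotated genes, 66.0% of them when its 4 transcripts are joined. Gm28048 shares 58.6%, the processed pseudogene Gm12057 6.89% and the noncoding gene 9130230N09Rik, on the other strand, 0.526%.

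Gm28048 was the gene at place 1 by p in the same ADP fit. It stood at 0.00446, 0.00802 and 0.224 FPKM without ADP and at 7.85, 6.09 and 5.37 FPKM with it. Where B3gnt2 was low, the gene that shares its exon was therefore high. Summed over both genes, the FPKM came to 8.20 ± 0.255 without ADP and 10.8 ± 0.961 with ADP (SD, n = 3 each), so the sum was not lower with ADP. The sum is only approximate, since the transcripts differ in length. Commd1, a copper metabolism gene of the same region of chromosome 11, stood between 2.63 and 4.02 FPKM in all 18 MLO-Y4 libraries.

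The same opposite reading appeared in libraries the choice did not use. In the 12 libraries of the oligomycin A experiment, Gm28048 was at 10.7 FPKM in vehicle-treated replicate 2 and at 6.69 FPKM in vehicle-treated replicate 3. Of these 2, replicate 2 is a library that stood apart, with a summed FPKM of 352370 against 265160 to 282134 in the other 17 MLO-Y4 libraries, and 26.3% of it from the 3 features AY036118, Gm23935 and CT010467.1, against 0.194% to 0.394% elsewhere. Without it the reading rests on replicate 3 alone among these libraries. In the other 10 it did not exceed 0.00717 FPKM. B3gnt2 stood at 3.62 and 6.26 FPKM in those 2 vehicle-treated libraries and between 10.3 and 13.6 FPKM in the other 10. Over the 18 MLO-Y4 libraries, the 5 with Gm28048 at 5.37 FPKM or more had B3gnt2 between 3.62 and 6.26 FPKM, and the 13 with Gm28048 under 0.3 FPKM had it between 7.90 and 13.6 FPKM, with no overlap. Of these 5, 3 are the ADP libraries that were used to choose B3gnt2, so their part in this separation follows from the choice. The ADP and oligomycin A libraries were also normalized apart. In young bone, medium transfer replicate 2 had Gm28048 at 11.1 FPKM and the other 5 libraries did not exceed 0.0184 FPKM, while B3gnt2 was at 2.71 FPKM in that library, inside the 2.05 to 4.64 FPKM of the others. No source used here says how fragments were divided between the 2 genes, and the part of that division in the B3gnt2 values was not tested. A change of B3gnt2 alone and a shift of shared fragments to Gm28048 cannot be told apart from these tables.

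**Figure D2:**
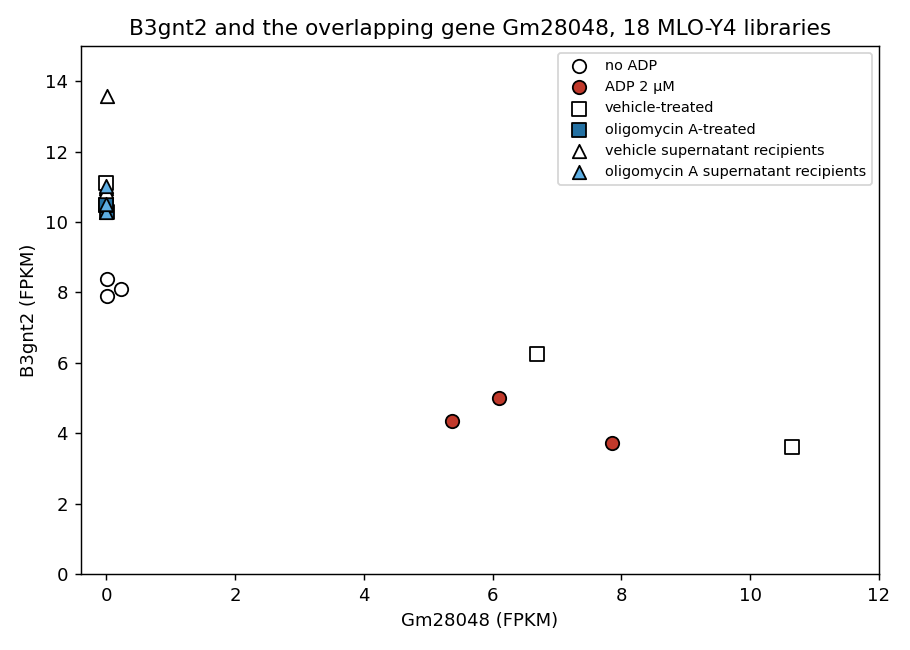
B3gnt2 (vertical axis, FPKM) against Gm28048 (horizontal axis, FPKM) in the 18 MLO-Y4 libraries, 3 per group. The 3 libraries with ADP and 2 of the vehicle-treated libraries lie at the lower right, with B3gnt2 at 3.62 to 6.26 FPKM, and the other 13 lie at the left edge, with B3gnt2 at 7.90 FPKM or more. B3gnt2 was chosen from the libraries with and without ADP, so their separation follows from the choice.

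Relatives and partners of the 8 genes were read from 15 lists. None of 99 tested genes (137 genes in all) passed the adjusted p of 0.05 under ADP in either direction. With 0.0603% of all genes passing in that fit, a count of 0 is no result about the relatives. Their log2 differences ran from -0.20 to 0.31 with a median of -0.01, against a median of -0.0012 over all genes. Slc36a4, the other measured transporter of the SLC36 family, stood at 13.76 FPKM without ADP and 13.77 FPKM with it. Of 21 measured genes of lysosomal amino acid sensing for mTORC1 the most abundant were Lamtor5 (33.0 and 35.2 FPKM), a scaffold subunit, and Rraga (31.1 and 31.0 FPKM), a Rag GTPase. Among 10 endosomal partners of WDR81, Rab7, the GTPase of late endosomes, stood at 109 and 98.3 FPKM.

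Of the 5 measured CDK inhibitors related to Cdkn2d, Cdkn2a was at 102 and 97.8 FPKM, Cdkn2c at 31.5 and 31.4 FPKM and Cdkn1a at 24.2 and 24.2 FPKM without and with ADP. Of 4 measured relatives of B3gnt2, B3gnt9 was at 13.2 and 12.1 FPKM. B4galt1, a galactosyltransferase that alternates with B3gnt2 in chain building, was at 43.8 and 42.7 FPKM. Among nucleotide receptors only P2ry2 and P2rx4 reached a mean of 1 FPKM, at 1.12 ± 0.104 and 3.36 ± 0.208 FPKM without ADP (SD, n = 3). P2ry1, P2ry4 and P2ry13, of which P2ry1 and P2ry13 are known as ADP receptors, were listed at 0 in all 6 libraries, and the highest value of P2ry12, another ADP receptor, was 0.0291 FPKM.

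The oligomycin A experiment tests the 8 genes in other libraries. It includes vehicle-treated replicate 2, the library that stood apart. Low values gave no usable read depth, so the depth of the libraries is unknown. In the treated cells none of the 8 passed an adjusted p of 0.05 against vehicle (limma on all 4 groups), where 5.34% of 11902 tested genes did. At an unadjusted p under 0.05 there were 2 of the 8, Slc36a1 and B3gnt2, and 2641 of all genes.

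Slc36a1 stood at 2.44, 2.20 and 2.25 FPKM in vehicle-treated cells and at 1.71, 0.816 and 0.654 FPKM in oligomycin A-treated cells. The groups did not overlap, and the log2 difference of -0.71 (95% interval -1.20 to -0.22) had an adjusted p of 0.0897. The 3 vehicle values lay in the range seen with ADP and 1 of the 3 treated values, 0.816 FPKM, in the range seen without it, although the tables were normalized apart. B3gnt2 stood at 11.1, 3.62 and 6.26 FPKM in vehicle-treated cells and at 10.5, 10.3 and 10.5 FPKM in treated cells, a log2 difference of 0.62 (95% interval 0.07 to 1.18, adjusted p = 0.170), and the low values were those of the 2 libraries with Gm28048. Without vehicle-treated replicate 1 this difference was 0.98 with an adjusted p of 0.0095. Without vehicle-treated replicate 2 it was 0.28 with an adjusted p of 0.362.

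Wdr81 stood at 4.91, 4.71 and 4.68 FPKM in vehicle-treated cells and at 1.87, 3.99 and 4.14 FPKM in treated cells. All treated libraries were below all vehicle libraries, and the log2 difference of -0.46 (95% interval -1.01 to 0.08) had an adjusted p of 0.305. Cdkn2d stood at 8.06, 7.70 and 8.67 FPKM and at 9.34, 5.40 and 4.85 FPKM, and Yipf6 at 1.22, 2.39 and 1.30 FPKM and at 2.08, 0.930 and 0.949 FPKM, with overlap in both genes. The log2 difference was -0.33 (95% interval -0.88 to 0.23) for Cdkn2d and -0.19 (95% interval -0.79 to 0.41) for Yipf6.

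For Pianp, Fam122b and Zmym5 the log2 differences were 0.03 (95% interval -0.50 to 0.56), 0.17 (-0.39 to 0.73) and 0.22 (-0.33 to 0.77). The intervals of Pianp, Fam122b and Yipf6 exclude a difference as large as the gene's own under ADP in either direction, and those of the other 5 include it in 1 direction. Without vehicle-treated replicate 2, Fam122b was at -0.0061 and Yipf6 at 0.0046, opposite in sign to the values with it.

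In recipients of supernatant none of the 8 passed either, where 0.386% of 11902 genes did. Wdr81 was the 1 member with an unadjusted p under 0.05, against 962 of all genes. It stood at 4.11, 3.71 and 5.14 FPKM after vehicle supernatant and at 1.82, 3.70 and 1.50 FPKM after oligomycin A supernatant, so the groups came close at 3.70 and 3.71 FPKM without overlap. This is a log2 difference of -0.72 (95% interval -1.26 to -0.17, adjusted p = 0.402). Fam122b stood at 2.83, 3.05 and 1.14 FPKM and at 3.21, 2.97 and 4.01 FPKM, a log2 difference of 0.44 (95% interval -0.11 to 1.00).

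Yipf6 stood at 1.51, 1.15 and 1.15 FPKM after vehicle supernatant and at 2.76, 2.95 and 0.955 FPKM after oligomycin A supernatant, a log2 difference of 0.44 (95% interval -0.16 to 1.04). In the oligomycin A recipients, 2 libraries were high and 1 was lower than any vehicle recipient. Slc36a1 stood at 0.821, 2.23 and 0.866 FPKM and at 1.01, 0.798 and 0.700 FPKM, a log2 difference of -0.28 (95% interval -0.77 to 0.21). Here 1 vehicle recipient was as high as the cells with ADP, and the other 5 libraries lay near the level without ADP. For Cdkn2d, B3gnt2, Zmym5 and Pianp the log2 differences were 0.21, -0.14, -0.09 and 0.06. The difference between the recipient and the direct response, which compares 2 h of supernatant with 1 h of inhibitor, passed for none of the 8 members and for 0.445% of all genes, and it ran from -0.76 for B3gnt2 to 0.63 for Yipf6 on the log2 scale.

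The vehicle groups were also set against each other. They differ in time and in medium, and 14.7% of all genes passed between them, of the 8 members none. This contrast shares the vehicle-treated libraries with the direct contrast above. B3gnt2 was at 13.6, 11.0 and 10.9 FPKM in vehicle recipients, a log2 difference of 0.78 from vehicle-treated cells (95% interval 0.23 to 1.34, adjusted p = 0.0588). Without vehicle-treated replicate 1 the difference was 1.14 with an adjusted p of 0.0028, and without vehicle-treated replicate 2 it was 0.44 with an adjusted p of 0.129. Slc36a1 differed by -0.57 (95% interval -1.05 to -0.08, adjusted p = 0.110), and by -0.84 with an adjusted p of 0.0174 without the high vehicle recipient, replicate 2. For the other 6 genes the log2 differences lay between -0.39 for Cdkn2d and 0.12 for Fam122b.

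**Figure D3:**
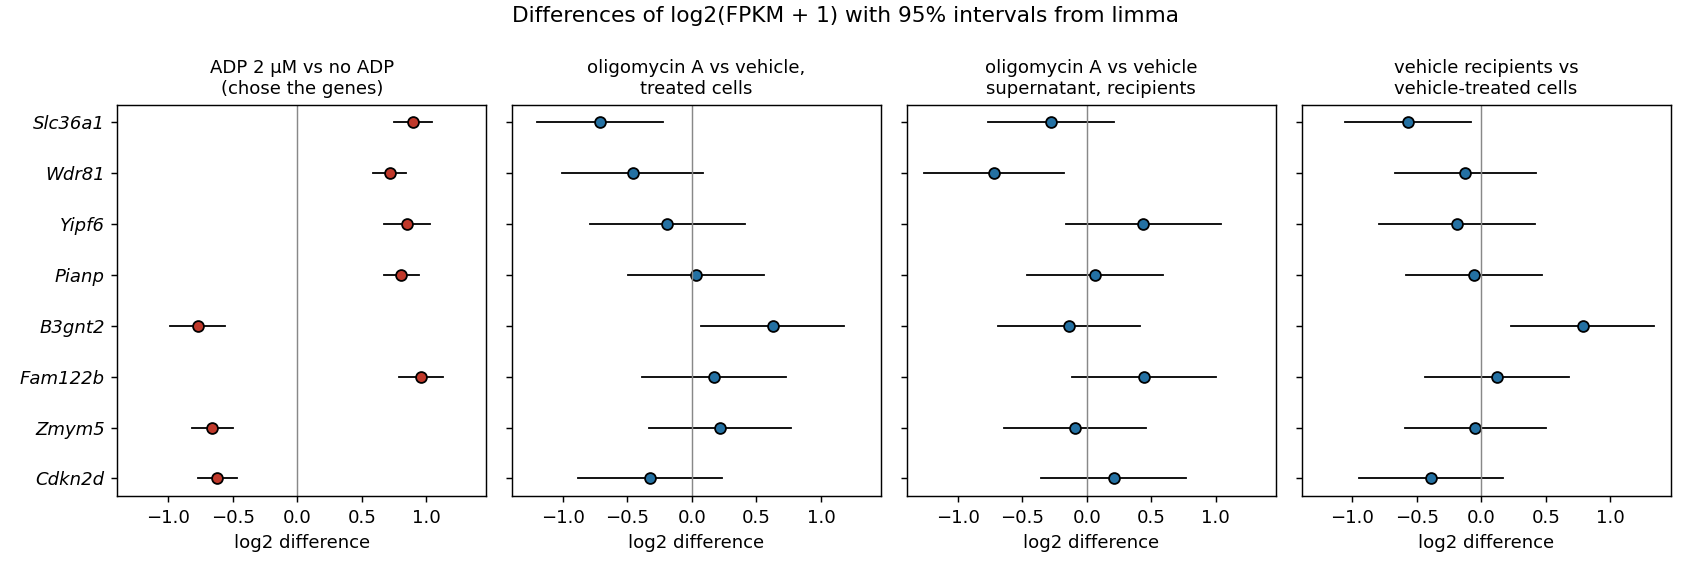
Differences of log2(FPKM + 1) for the 8 genes in 4 contrasts, with 95% intervals from limma as lines. The first panel is the contrast that chose the genes, with sizes from 0.62 to 0.96, and in the other panels, made from 12 other libraries, most intervals cover 0 and none of the differences passed an adjusted p of 0.05.

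What the 8 genes had in common in these 12 libraries, and what the choice did not use, was a wide spread between replicates of 1 group. On the log2(FPKM + 1) scale their within-group SD ran from 0.31 for Slc36a1 to 0.39 for Yipf6, against a median of 0.11 over all tested genes, and each of the 8 was at or above the 94.4th percentile of tested genes. In the ADP experiment the SD of the same genes ran from 0.05 for Wdr81 to 0.12 for B3gnt2, against a median of 0.07 over all genes. Selection by p favours a small spread there, so the ADP values are no independent reading. The median ratio of the 2 SDs was 4.35 for the members and 1.51 over the 11316 genes tested in both. The same selection favours a high ratio for the members, so the ratio is no independent reading either.

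The widest range within a group, from its lowest to its highest replicate, had a median of 0.93 on the log2 scale for the members. Over all genes the median was 0.29. With 3 replicates this range grows with the SD and is no separate reading of the spread. For 5 of the 8 the widest range reached the size of the gene's own ADP difference: Wdr81, Yipf6, Zmym5, Cdkn2d and B3gnt2. For Zmym5 and B3gnt2 the vehicle-treated cells were the only group to do so. In both genes the lowest of these libraries was vehicle-treated replicate 2, the library that stood apart, and their place among the 5 rests on it. How many of all genes reach their own ADP difference in this way was not counted. Over the 12 libraries the highest value exceeded the lowest by a factor of 1.89 for Pianp, 2.13 for Zmym5, 2.37 for Cdkn2d, 3.17 for Yipf6, 3.43 for Wdr81, 3.52 for Fam122b, 3.73 for Slc36a1 and 3.76 for B3gnt2. The ratio of the means with and without ADP was 2.95 for Slc36a1, 2.04 for Wdr81, 2.42 for Yipf6, 2.47 for Fam122b and 1.81 for Pianp. It was 0.585 for Zmym5, 0.610 for Cdkn2d and 0.538 for B3gnt2. A ratio of the extremes of 12 single libraries tends to be larger than a ratio of means of 3. The 2 measures are therefore not alike.

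For Slc36a1, 4 of the 12 libraries lay at or above the lowest value with ADP and 5 at or below the highest value without it, and the vehicle recipients held libraries of both kinds. Wdr81 had 3 libraries at 1.50 to 1.87 FPKM and 9 at 3.70 FPKM or more, with 1 of the low libraries among oligomycin A-treated cells and 2 among oligomycin A recipients. Pianp had 3 libraries at 12.6 to 14.2 FPKM and 9 at 18.9 FPKM or more. Its low libraries were vehicle-treated replicate 3, vehicle recipient replicate 3 and oligomycin A recipient replicate 1, none of them a low library of Wdr81 except the last.

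Zmym5 ran from 4.63 to 9.84 FPKM, and both ends lay among the vehicle-treated cells, in replicates 2 and 3. Cdkn2d ran from 4.58 to 10.9 FPKM, with both ends among oligomycin A recipients, in replicates 2 and 3. The high and low libraries differed from gene to gene: deviations from the group means, compared over the 12 libraries for the 28 pairs of members, had a median Pearson r of -0.01, a lowest of -0.87 (Wdr81 with Cdkn2d) and a highest of 0.56. These correlations share their libraries and are given as a description.

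**Figure D4:**
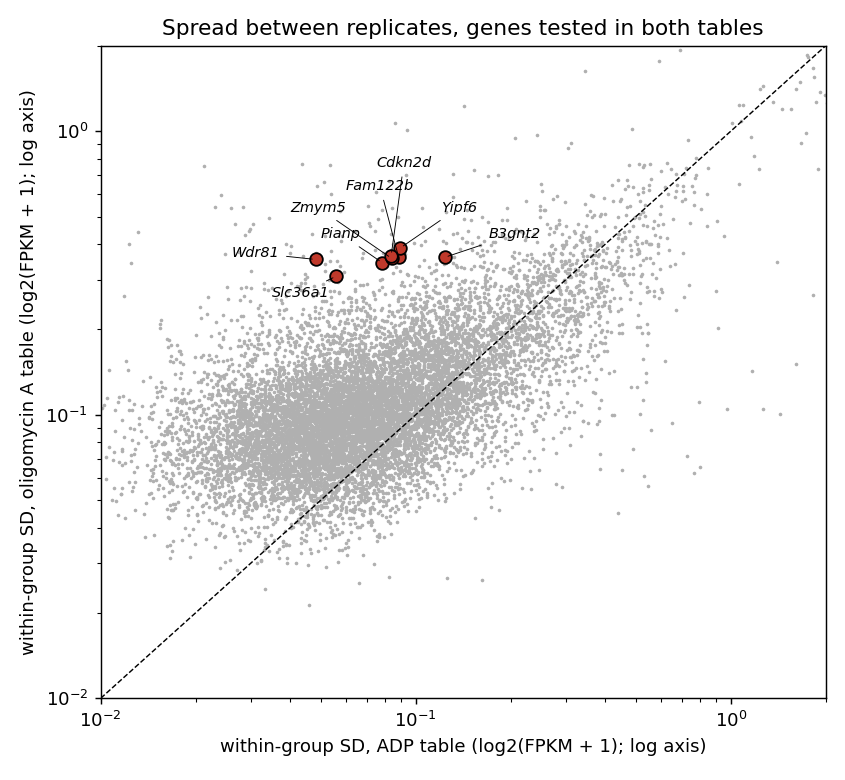
Within-group SD of log2(FPKM + 1) in the ADP table (horizontal, log axis) and in the oligomycin A table (vertical, log axis) for the 11316 genes tested in both, with the 8 members in red and equality as a dashed line. All 8 members lie above the line, at 0.31 to 0.39 in the oligomycin A table, against a median of 0.11 over all tested genes. Selection by p favours a small SD in the ADP table, so the distance of the members from the line is no independent reading.

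For each member the genes with the most similar pattern over the 12 libraries were read from 6496 genes with a mean of at least 5 FPKM and no predicted name. Slc36a1 was closest to Med25 (Pearson r = 0.92), a Mediator subunit, Wdr81 to Snx3 (0.91), a sorting nexin of endosomes, and Yipf6 to Pcmt1 (0.74), a protein repair methyltransferase. B3gnt2 was closest to Rdx (0.92), the cytoskeletal linker radixin. Pianp was closest to Asah1 (0.81), the lysosomal acid ceramidase, Fam122b to Rab7 (0.92), Zmym5 to Mbnl1 (0.87), a splicing factor, and Cdkn2d to Fcor (0.89). The best of 6496 genes over 12 points is high by selection, and the libraries are shared.

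The annotation shows several transcripts for every member. They have 3 to 7 transcripts in GENCODE M21, with a median of 4.5, against a median of 5 over all genes tested under ADP. The ratio of the longest to the shortest coding transcript had a median of 3.53 for the members and 2.17 over 9953 genes. It was 8.06 for Slc36a1 (chromosome 11, 55204350 to 55236330, plus strand), 11.6 for Pianp (chromosome 6, 124996694 to 125003096, plus strand) and 18.3 for Yipf6 (chromosome X, 98936316 to 98949017, plus strand), but 1.01 for Zmym5 (chromosome 14, 56790585 to 56811716, minus strand) and 1.41 for Fam122b (chromosome X, 53243415 to 53269805, minus strand). It was 2.24 for Wdr81 (chromosome 11, 75440944 to 75454717, minus strand), 2.06 for Cdkn2d (chromosome 9, 21288410 to 21291407, minus strand) and 4.81 for B3gnt2. FPKM divides by transcript length, and no source used here says which length was taken for each gene. The part of transcript choice in the values was not tested.

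Upstream sequence was read for all 8 genes, 11 windows of 250 bases before the RefSeq start (GRCm38.p6), because 5 of the genes were higher together under ADP. The E-box CACGTG, searched on both strands, was in the windows of 2 members, Slc36a1 and Wdr81, and in 6.02% of 32851 windows of the same length. The 2 windows are shown with the E-box in capitals, for chr11:55204090-55204339 (plus strand) and chr11:75454718-75454967 (minus strand).
Slc36a1 upstream: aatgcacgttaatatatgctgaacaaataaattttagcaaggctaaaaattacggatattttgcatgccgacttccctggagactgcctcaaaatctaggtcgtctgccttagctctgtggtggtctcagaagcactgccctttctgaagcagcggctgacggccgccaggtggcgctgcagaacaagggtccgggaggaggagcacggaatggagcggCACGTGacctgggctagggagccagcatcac
Wdr81 upstream: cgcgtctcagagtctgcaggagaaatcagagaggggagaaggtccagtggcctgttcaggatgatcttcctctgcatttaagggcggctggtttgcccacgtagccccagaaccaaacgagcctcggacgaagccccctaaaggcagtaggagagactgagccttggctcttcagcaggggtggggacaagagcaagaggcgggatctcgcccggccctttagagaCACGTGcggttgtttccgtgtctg
The cyclic AMP response element TGACGTCA (1.55% of all windows) and the AP-1 motif TGACTCA (4.46%) matched no member window, and CCAAT (33.8%) matched windows of the other 6 members. Members are counted here as genes, 8 with 11 windows, while the percents are of windows, so the 2 are not like measures. None of these motifs contains another, and a match is a description of the letters only.

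In the oligomycin A experiment 100 relatives were tested. In treated cells 8 of them passed, 5 higher and 3 lower, beside 5.34% of all genes. Slc3a2, the heavy chain of amino acid exchangers, rose from 39.9 to 63.0 FPKM (log2 difference 0.65, adjusted p = 0.0028) and Cln3, a lysosomal membrane protein, from 2.30 to 4.27 FPKM (0.68, adjusted p = 0.0064). Cdkn1b, the CDK inhibitor p27, rose by 0.47, Zmym2 by 0.38 and Rubcn by 0.28. Arpp19, a PP2A inhibitor, fell by 0.77, Yif1a by 0.28 and B4galt5 by 0.28 on the log2 scale. In recipients 1 of the 100 passed, beside 0.386% of all genes: Slc3a2, at 33.8 and 60.0 FPKM (log2 difference 0.80, adjusted p = 0.0041). Between the vehicle groups 11 passed, 7 higher and 4 lower, a smaller share than the 14.7% of all genes, among them Set, a PP2A inhibitor, at 0.44 and B3gnt3, a relative of B3gnt2, at -0.51. None of 100 passed in the difference of responses, where 0.445% of all genes did. These counts are not read as particular to the relatives.

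In bone the order of the genes was different from that in the cell line. Cdkn2d was at 96.9, 141 and 115 FPKM in the 3 libraries of 18-month cortical bone, far above its 4.58 to 10.9 FPKM in the 18 MLO-Y4 libraries and its 6.53 to 11.0 FPKM in the 6 libraries of 1-month fragments. Old bone also carried blood cell transcripts at levels the other groups did not reach: the summed level of 4 erythroid markers was 203138 to 214956 FPKM there, against 2258 to 12197 FPKM in young fragments and at most 2.03 FPKM in MLO-Y4 cells. That of 5 neutrophil markers was 96097 to 100425 FPKM, against 291 to 1296 FPKM and at most 9.22 FPKM. Their part in the Cdkn2d level was not tested, and in tissue more cells of a type and more RNA per cell cannot be told apart.

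Pianp, at 12.6 to 26.4 FPKM in MLO-Y4 cells, was at 0.109, 0.0203 and 0 FPKM in old bone and reached 0.738 FPKM at most in young fragments. B3gnt2 was at 7.14, 8.82 and 7.98 FPKM in old bone, within its range in the cell line. In old bone Slc36a1 (0.940 to 1.91 FPKM), Wdr81 (1.61 to 3.05 FPKM) and Yipf6 (1.41 to 1.77 FPKM) also lay within their cell-line ranges. Fam122b (0.754 to 1.32 FPKM) lay in part below its cell-line range, and Zmym5 (1.55 to 2.09 FPKM) was below every MLO-Y4 library. Levels in different tables were normalized apart, so these orders have no test.

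Among the group means, neighbours in the order of levels mostly overlapped in their libraries: in 7 of 8 steps for Slc36a1, Pianp, Yipf6, Cdkn2d and B3gnt2, and in 5 of 8 steps for Wdr81, Fam122b and Zmym5. The mean with ADP was the highest of the 9 groups for Slc36a1, Pianp, Fam122b and Yipf6 and the lowest for Cdkn2d. For Wdr81 both vehicle groups were above it, at 4.77 ± 0.129 and 4.32 ± 0.742 FPKM against 3.38 ± 0.167 FPKM (SD, n = 3 each). A high or low place of the ADP mean follows in part from the choice of the genes, and this order crosses tables that were normalized apart.

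In 1-month fragments 4 of the 8 genes reached the mean of 1 FPKM needed for a test, and none of the 4 passed between medium transfer and control, where 0.0243% of 16438 genes did and 368 had an unadjusted p under 0.05. Among the genes below that mean, Wdr81 stood at 1.07, 1.57 and 0.574 FPKM after transfer and at 0.450, 0.123 and 0.473 FPKM in controls. The groups of Wdr81 did not overlap but were not tested, and those of Slc36a1, Pianp and Fam122b overlapped. Zmym5 stood at 3.55, 2.09 and 0.782 FPKM after transfer and at 1.14, 0.755 and 0.477 FPKM in controls, a log2 difference of 0.72 (95% interval -0.48 to 1.93, adjusted p = 0.900). Yipf6 stood at 1.48, 3.04 and 0.334 FPKM and at 0.682, 0.826 and 1.25 FPKM, a log2 difference of 0.32 (95% interval -0.92 to 1.56). For B3gnt2 the log2 difference was 0.19 and for Cdkn2d -0.01. The median over all genes tested in bone was itself 0.45, and it was 0.0015 after quantile normalization, where Yipf6 was at -0.13, B3gnt2 at -0.25, Cdkn2d at -0.65 and Zmym5 at 0.40, and with libraries rescaled to 1 total Cdkn2d was at 0.43. The direction of Yipf6, B3gnt2 and Cdkn2d thus depends on the scaling, and that of Zmym5 did not turn under the scalings tried. The features Gm10800, Gm10801 and Gm21738 took 62.4% to 85.6% of the FPKM in 5 of these 6 libraries and 5.36% in medium transfer replicate 2, and the intervals leave changes of the size seen under ADP undetectable here.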

How the data were processed

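The labels' protocols describe sequencing of RNA selected with oligo(dT). Values came as 4 FPKM tables deposited by the authors, with 55335 gene rows each, and HTSeq and mm10 are listed without a role in the submitters' processing notes. FPKM are not counts: low values of genes with 1 transcript fell within 0.1 of a whole multiple of a step in 61.1% to 67.4% of cases in MLO-Y4 libraries and 27.6% to 40.1% in bone, too few to recover reads for a count test. Of 48 samples, 27 in 9 groups were used and 21 are not analysed here. Vehicle libraries were grouped by title and protocol, since their treatment label names both agents and 50 mM, where the protocol has a working 50 µM.

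Each table was fitted with limma 3.58.1 (R 4.3.3) on log2(FPKM + 1). Genes needed a mean of at least 1 FPKM, the variance prior was trended, and p-values were adjusted over all genes tested (Benjamini-Hochberg, 0.05). The 4 oligomycin A groups shared 1 fit. The code was tested on simulated data. Named genes were the members, their neighbours within 5 kb, the next 2 genes by p, the 3 most similar genes and called or abundant relatives from 15 lists. The members and lists were chosen with earlier results of these data known. A gene that the ADP fit called is not reported here. Other pseudocounts, filters, scalings, priors, fits of 2 groups, a replicate block and fits without each library in turn served as alternatives. Of the gene rows 55154 were found in GENCODE M21 (GRCm38), which gave positions and transcripts, and RefSeq (GRCm38.p6) gave upstream windows for all 8 members.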

Additional observations from a re-analysis of the deposited data

How the results depend on the processing

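The count of members past the threshold under ADP, 5 of 8, was 0 when low genes were not filtered and 1 when a mean of 5 FPKM was required. Leaving out single libraries gave 0 to 6: it was 0 without ADP replicate 2 and without replicate 1 or 3 of the cells lacking ADP, 1 without replicate 2 of those cells, 2 without ADP replicate 3 and 6 without ADP replicate 1. In treated cells the count was 0, and 0 to 1 without single libraries. Between the vehicle groups it was 1 with a filter at 5 FPKM (B3gnt2, adjusted p = 0.0497) and 1 with median-of-ratios scaling (B3gnt2, 0.0499), and 0 to 1 without single libraries. The cause was not tested. Replicate numbers did not pair the samples (same-numbered deviations had r from -0.23 to 0.06), and with a replicate block the count under ADP was 0, with an adjusted p of 0.272 for Slc36a1; the block changed no other count of members. With a pseudocount of 0.1 the ADP differences were 1.45 for Slc36a1, 1.27 for Fam122b, 1.21 for Yipf6 and 0.98 for Wdr81.

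Of 585 recomputed log2 differences 542 kept their direction together with, under ADP, a size within 1 SD of the first value (the threshold was not part of that comparison) or, elsewhere, their side of the threshold. Small differences changed sign. With libraries rescaled to 1 total, the median of all genes moved by 0.10 between the vehicle groups, where Pianp was at 0.063 and Zmym5 at 0.056, by 0.12 in treated cells and by -0.11 in the difference of responses. In young bone it moved by -0.45 with quantile normalization (Yipf6 at -0.13, B3gnt2 at -0.25), by -0.47 with median-of-ratios scaling (-0.14 and -0.26) and by 0.33 with 1 total (Cdkn2d at 0.43). Leaving out single bone libraries gave -0.21 to 0.19 for Cdkn2d and -0.057 to 0.37 for B3gnt2. Without single libraries, treated cells gave -0.0061 to 0.35 for Fam122b, -0.41 to 0.0046 for Yipf6 and -0.20 to 0.19 for Pianp. Recipients gave -0.18 to 0.26 for Pianp, -0.27 to 0.061 for Zmym5 and -0.072 to 0.47 for Cdkn2d. The vehicle groups gave -0.29 to 0.19 for Pianp, -0.057 to 0.41 for Fam122b, -0.26 to 0.21 for Zmym5 and -0.30 to 0.0075 for Yipf6. Depth is unknown, so the precision of the low FPKM values cannot be given.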
